A study of Mus musculus with 49 samples.

Results

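The cyclins and their kinases described here are 10 genes out of the 23992 gene symbols in the deposited RNA-seq tables: the D-type cyclin genes Ccnd1, Ccnd2 and Ccnd3, their kinases Cdk4 and Cdk6, the E-type cyclin genes Ccne1 and Ccne2, the kinase gene Cdk2, and the genes of cyclin A2 (Ccna2) and cyclin B1 (Ccnb1). They were taken by symbol, with the longest RefSeq transcript for each, and all 10 passed the filter on low counts that left 15566 genes. RNA came from mouse splenic CD8+ T cells (strain C57BL/6J) purified with a CD8+ T cell isolation kit and cultured with 500 IU/ml of recombinant human IL-2. Cells of 2 mutant lines were compared: Stat5a KI mice, whose STAT5A carries phenylalanine in place of its phosphorylated tyrosine, and Stat5b KI mice, with the same kind of change in STAT5B. Each line had WT littermates, so that 16 groups resulted: WT and KI cells of the Stat5a line, and WT and KI cells of the Stat5b line, each at 0, 4, 24 and 48 hr of IL-2. The mutations were made by CRISPR/Cas9 editing and the KI mice were homozygous. Adult mice of both sexes were used. The study's methods give an age range in weeks for the experiments and another, in months, for mice injected with IL-2. They give no age for single libraries. In Stat5a KI cells the Stat5b gene is intact, and in Stat5b KI cells the Stat5a gene is intact.

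Cyclins are regulatory subunits that switch on cyclin-dependent kinases. D-type cyclins join CDK4 and CDK6 early in G1 in response to growth signals and start the phosphorylation of the retinoblastoma protein, cyclin E joins CDK2 near the start of DNA replication, cyclin A2 works with CDK2 and CDK1 through S phase and G2, and cyclin B1 joins CDK1 to drive entry into mitosis. In T cells, IL-2 signals through JAK kinases to STAT5A and STAT5B, which bind DNA as dimers once their tyrosine is phosphorylated, and IL-2 is a classical signal for the passage of T cells from G1 into S phase.

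Each group had 3 libraries, but replicate 3 of Stat5a KI at 4 hr was left out. It held 1028515 reads over the genes, which was 5.68% of its mapped reads, and its markers of CD8+ T cells summed to 12.1 RPKM (read number relative to gene length in kilobases and to sequencing depth). The other 47 libraries held 17369112 to 60200653 reads each, with a median of 41410666. In the Stat5a line, WT replicate 2 at 4 hr had the lowest of these totals and the lowest share of mapped reads in genes, 44.9%, and it was the lowest of the 47 libraries in RPKM for Ccnd3, Cdk4, Cdk2, Ccna2 and Ccnb1. RPKM divides by all mapped reads, while the tests scale each library by its reads in genes. In the same line, WT replicate 3 at 0 hr also stood apart from its group, with a B cell marker sum of 51.2 RPKM against 140 and 150 in its partners. Values without one or both of these libraries are given beside several results. The labels do not tie the libraries to single mice, so the p-values measure the spread between these libraries.

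The cells carried the RNA of their label in every library used. Of the 6 markers of CD8+ T cells chosen, 5 were in the tables, none of them was at 0 in any group, and their summed level ran from 585 to 1667 RPKM, with Cd8b1 the most abundant in 15 of 16 groups. Markers of other cells were present too, and differed between genotypes. The summed level of 6 B cell markers at 48 hr was 11.6 RPKM in WT and 118.4 RPKM in KI cells of the Stat5b line, with Cd79b the most abundant in the former and Cd79a in the latter. Macrophage markers (9 of 10 found) summed at 48 hr to 3.61 RPKM in WT cells, where Fcgr1 was at 0 in all 3 libraries, and to 77.6 RPKM in Stat5b KI cells, where Lyz2 led. The 6 erythroid markers summed at 0 hr to 70.5 RPKM in WT cells and 646 RPKM in Stat5b KI cells, with globin genes the most abundant.

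The targeted genes kept their RNA. Stat5a lay at 19.7 ± 0.78 RPKM (SD, n = 3) in WT and 20.0 ± 1.85 RPKM (SD, n = 3) in Stat5a KI cells at 0 hr, and Stat5b at 29.2 ± 0.75 and 27 ± 0.15 RPKM (SD, n = 3 each) in WT and Stat5b KI cells. At 48 hr Stat5b RNA was 31.1 ± 2.33 RPKM in Stat5b KI and 21.3 ± 0.46 RPKM in WT cells (SD, n = 3 each), a log2 fold change of 0.47 (SE 0.11, adjusted p = 0.000533), by the quasi-likelihood test of edgeR with p-values adjusted after Benjamini and Hochberg, as throughout. A point mutation need not alter the RNA level of its gene, so these values do not check the genotype labels.

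In GRCm38.p6 the D-type cyclin genes lie on 3 chromosomes, Ccnd1 at chr7:144929931-144939831 (5 exons, minus strand), Ccnd2 at chr6:127125162-127152188 (5 exons, minus strand) and Ccnd3 at chr17:47505051-47599689 (7 exons, plus strand). Their kinases are Cdk4 at chr10:127063535-127067288 (8 exons, plus strand) and Cdk6 at chr5:3341004-3531008 (8 exons, plus strand). Of the later genes, RefSeq places Ccne1 at chr7:38097984-38107490 (12 exons, minus strand) and Ccne2 at chr4:11190433-11204779 (12 exons, plus strand). It places Cdk2 at chr10:128697938-128705051 (8 exons, minus strand), Ccna2 at chr3:36564865-36573038 (9 exons, minus strand) and Ccnb1 at chr13:100778739-100786486 (9 exons, minus strand).

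Short stretches of the members' promoters are shown first, since they hold motifs known from cell cycle and growth genes, and no relation of these letters to the values that follow was tested. RefSeq promoters (GRCm38.p6, 250 bases before each start) were found for 6 members with 7 starts: Ccnd3, Cdk4, Cdk6, Ccne1, Cdk2 and Ccnb1. Exact matches on both strands were sought for the E-box CACGTG, known as a binding motif of MYC and related factors, for TTCCCGC and TTGGCGC, forms of the E2F motif, for CCAAT, for TTTGAA, the core of the CHR element of mitotic genes, and for TTCNNNGAA, the STAT motif. The letters of CACGTG were in 6.02% of 32851 mouse promoters, TTCCCGC in 3.82%, TTGGCGC in 1.97%, CCAAT in 33.8%, TTTGAA in 16% and TTCNNNGAA in 7.02%. Capitals mark the match in each line, read on the strand of the gene.
Cdk4 E-box, chr10:127063353-127063378: ggcagccagtCACGTGccacacagcg
Cdk4 E-box, chr10:127063407-127063432: gtcaaggggtCACGTGggatagcaac
Cdk4 E-box, chr10:127063427-127063452: agcaacaggtCACGTGgccgtcaggg
Cdk4 E-box, chr10:127063514-127063534: gggtgaagatCACGTGtccag
Cdk6 E-box, chr5:3343663-3343688: tctgcggcccCACGTGggtgaacccc
Cdk2 E2F form, chr10:128705175-128705201: accaggaactGCGGGAAagttgtgcag
Cdk2 E2F form, chr10:128705052-128705071: ccagggaaacGCGGGAAgga
Cdk2 CCAAT, chr10:128705082-128705106: gtgacgtgaaCCAATcggaagggcg
Ccnb1 E2F form, chr13:100786572-100786598: ggaacccgcgGCGCCAAtgggaagaga
Ccnb1 CCAAT, chr13:100786539-100786563: cacgaactggCCAATgaggagcgag
Ccnd3 CCAAT, chr17:47593349-47593373: gcccagcggaCCAATggggctgcgg

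Both kinases of the D-type cyclins thus held the E-box letters, Cdk4 at 4 places and Cdk6 at 1, while Cdk2 and Ccnb1 held a form of the E2F letters on the other strand and CCAAT besides. In Ccnb1 the TTGGCGC match shares its last bases with another CCAAT. The letters of TTCNNNGAA and TTTGAA were not in the windows searched, and Ccne1 held none of the 6 motifs there. Those of Cdk4, Cdk2 and Ccnb1 lie before the first exon of the gene, while those of Cdk6 and Ccnd3 lie within the span of the gene, before a start that is not its outermost one. These matches are descriptions of the sequence, and binding at them was not analysed here.

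**Figure D1:**
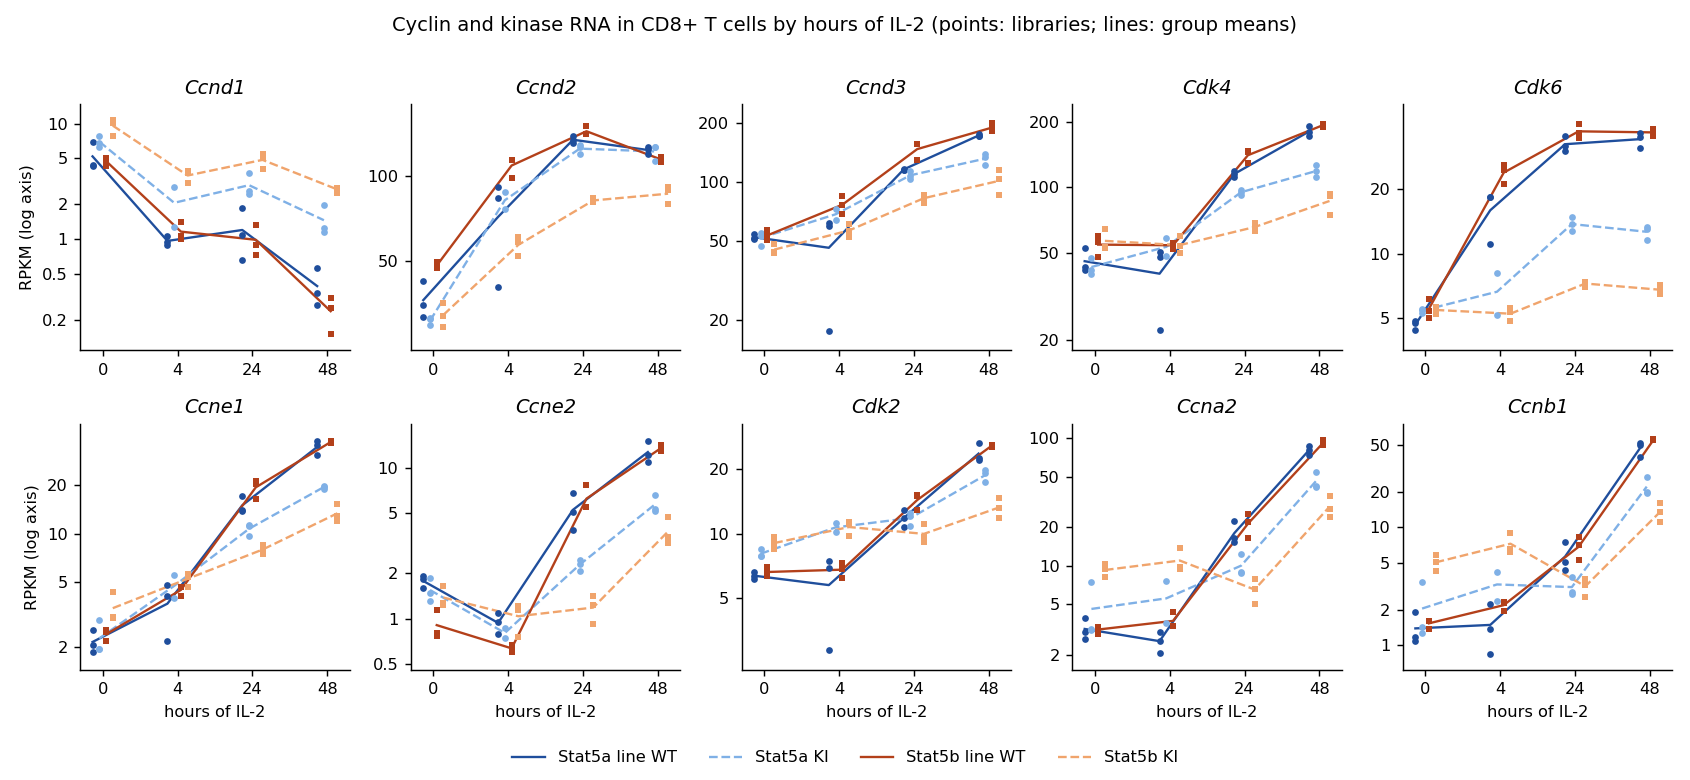
RNA level of the 10 members (RPKM, log axis, a separate range for each gene) at 0, 4, 24 and 48 hr of IL-2, which are drawn at equal distances. Points are libraries and lines join group means. Ccnd1 is highest at 0 hr in all 4 series and lowest at 48 hr, Cdk6 climbs in WT cells by 4 hr and stays low in Stat5b KI cells, and Ccna2 and Ccnb1 reach their highest means at 48 hr.

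Ccnd1 was the member that fell. In WT cells of the Stat5a line its libraries held 4.28, 6.90 and 4.42 RPKM at 0 hr and 0.342, 0.560 and 0.269 RPKM at 48 hr, and in WT cells of the Stat5b line 4.82, 4.33 and 5.08 RPKM at 0 hr and 0.252, 0.149 and 0.308 RPKM at 48 hr. Every library at 0 hr thus lay above every library at 48 hr in both lines. The fall came early: at 4 hr against 0 hr the log2 fold change was -2.37 (SE 0.31) for the Stat5a line and -2.21 (SE 0.30) for the Stat5b line. By 48 hr it had reached -3.96 (SE 0.33, adjusted p = 3.41e-13) and -4.50 (SE 0.35, adjusted p = 4.40e-14). In bulk RNA of this kind, fewer cells of a type and less RNA per cell cannot be told apart.

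KI cells held more Ccnd1 RNA than WT cells, and the distance was larger at 48 than at 0 hr. At 48 hr the Stat5b KI libraries held 2.53, 2.79 and 2.75 RPKM and the Stat5a KI libraries 1.98, 1.14 and 1.24 RPKM, all above every WT library of that time. The log2 difference of Stat5b KI from WT cells was 0.96 (SE 0.28) at 0 hr, 1.51 (SE 0.30) at 4 hr, 2.27 (SE 0.30) at 24 hr and 3.43 (SE 0.34, adjusted p = 7.18e-11) at 48 hr. In the Stat5a line the differences at 0 and 4 hr, 0.40 (SE 0.28) and 0.76 (SE 0.33), did not pass, and those at 24 and 48 hr were 1.23 (SE 0.30) and 1.85 (SE 0.32, adjusted p = 1.33e-05). The difference at 4 hr was 1.08 and passed without WT replicate 2 (adjusted p = 0.0368), and was 0.13 without KI replicate 1. Without WT replicate 3 the difference at 24 hr was 0.90, under the fold of 2 that a call required. Of the 16 group means, the highest was that of Stat5b KI at 0 hr, 9.61 ± 1.56 RPKM, which did not overlap with the next, and the lowest pair, WT cells of both lines at 48 hr, stood below all the others but overlapped with each other.

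Ccnd1 went with markers of macrophages, and of several other cell types but not of NK cells, across the groups. Over the 16 group means of log2 CPM (counts scaled to library size), its correlation was 0.95 with Csf1r, the receptor of macrophage colony stimulating factor, and 0.84 to 0.95 over all 9 macrophage markers. It ran from 0.71 to 0.88 over B cell markers, 0.43 to 0.95 over CD4 T cell markers, 0.68 to 0.85 over erythroid, 0.73 to 0.86 over neutrophil and 0.70 to 0.95 over dendritic cell markers. Over CD8 T cell markers it ran from -0.35 for Cd8a to 0.66 for Cd3g, over NK cell markers from -0.83 for Klre1 to -0.04 for Klra8, and over markers of memory-phenotype CD8 T cells from -0.85 for Il2rb to 0.40 for Cd44. The points of such a correlation share times, genotypes and libraries, and it is given as a description. The macrophage sum in Stat5b KI cells was 147.6 RPKM at 0 hr and 77.6 RPKM at 48 hr, and in their WT cells 35.7 and 3.61 RPKM. At 48 hr in the Stat5a line it was 37.0 RPKM in KI and 5.57 RPKM in WT cells, and KI replicate 1, the library with the highest Ccnd1 of that group, also had its highest macrophage sum, 65.0 RPKM. All 9 macrophage markers fell past the threshold between 0 and 48 hr in WT cells of both lines, and all 9 were called higher in KI cells at 48 hr in both lines. The part of these cells in the Ccnd1 values was not tested. In the GRCm38.p6 annotation the exons of Ccnd1 also share 818 of 3702 bases with Oraov1 on the opposite strand, whose median level was 7.37 RPKM. The transcript counted for Ccnd1 is 3796 bases long. The study's methods do not give the strand setting of the counting, and Oraov1 itself changed by -0.31 in WT cells of the Stat5b line from 0 to 48 hr and by 0.57 between Stat5b KI and WT cells at 48 hr, on the log2 scale.

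**Figure D2:**
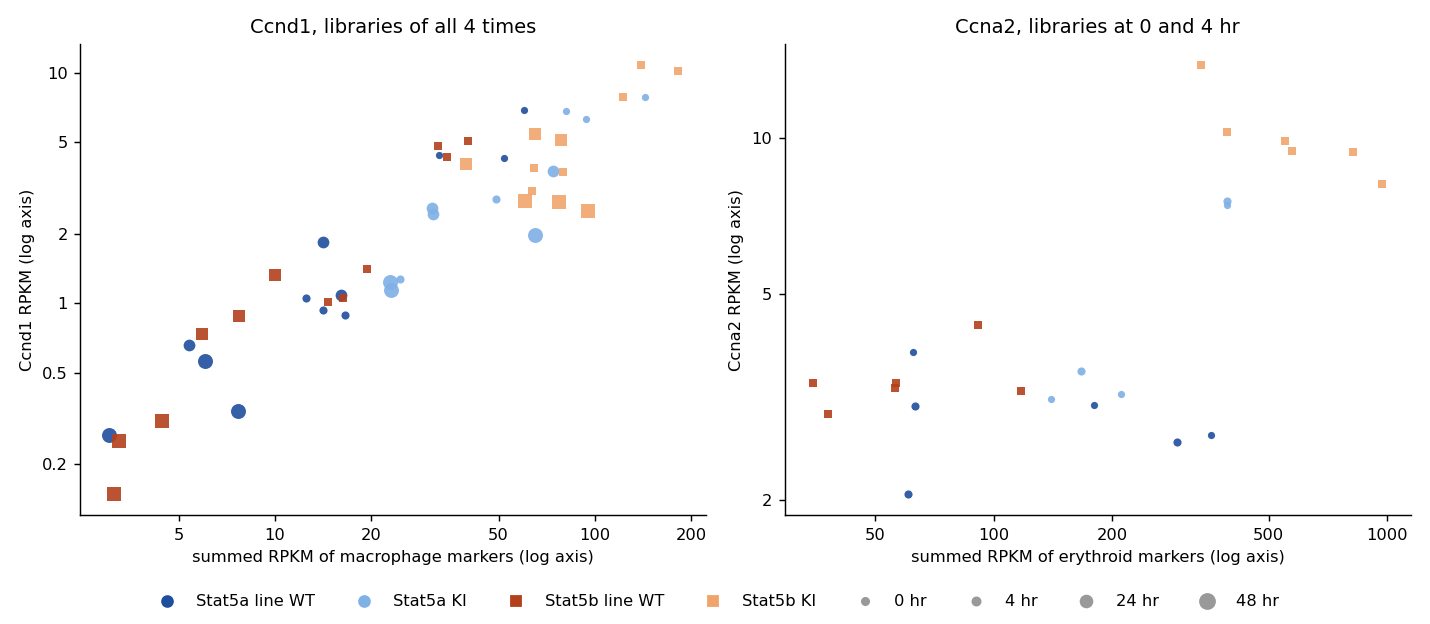
Left, Ccnd1 against the summed level of 9 macrophage markers in the 47 libraries, both in RPKM on log axes. Right, Ccna2 against the summed level of 6 erythroid markers in the libraries of 0 and 4 hr. Symbols grow with the hours of IL-2, colour and shape give the line and genotype, and WT libraries of 48 hr lie at the lower left of the left panel.

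Ccnd2 rose by 4 hr in WT cells and was highest at 24 hr in both lines. In the Stat5b line WT cells its libraries held 47.3, 48.0 and 49.8 RPKM at 0 hr, 97.9, 113.7 and 113.8 RPKM at 4 hr, 148.9, 140.3 and 140 RPKM at 24 hr and 116.1, 111.8 and 113.4 RPKM at 48 hr. The 4 times did not overlap except 4 and 48 hr. Fold changes on the log2 scale at 4 hr were 0.96 (SE 0.09) for the Stat5a line and 0.99 (SE 0.09) for the Stat5b line, just under the fold of 2 needed for a call, and at 24 hr 1.70 (SE 0.10) and 1.38 (SE 0.10), which were called. Between 24 and 48 hr Ccnd2 dropped by 0.32 in the Stat5b line (SE 0.09, adjusted p = 0.00622), and the change of -0.16 in the Stat5a line did not pass. Besides Ccnd2, Ccnd1 was the only member with a fall past the test in that step.

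The KI difference of Ccnd2 was not the same in the 2 lines at 48 hr. In the Stat5b line KI cells were lower already before IL-2, at 32.48 ± 3.23 RPKM against 48.35 ± 1.265 RPKM in WT at 0 hr (SD, n = 3 each). Means at 0 hr in the Stat5a line were 30.97 RPKM in KI and 36.57 RPKM in WT cells. All KI libraries of 0 hr lay below all WT libraries of their line. Stat5b KI libraries held 90.9, 89.1 and 79.2 RPKM at 48 hr, all below the WT libraries, and 58.4, 52.3 and 60.8 RPKM at 4 hr, where the log2 difference from WT was -1.03 (SE 0.09, adjusted p = 2.02e-10). The Stat5a KI libraries held 112.2, 126.2 and 126.2 RPKM at 48 hr against 123.5, 126.2 and 119.1 RPKM in WT, and these overlapped. The Stat5a KI difference at 48 hr was -0.07, with an interval of 2 SE from -0.25 to 0.12, and it did not pass at any of the 4 times. The difference between the lines in the KI effect at 48 hr was -0.41 (SE 0.13, adjusted p = 0.0378). The rise from 0 to 48 hr, KI minus WT, differed by 0.19 (interval -0.07 to 0.46) in the Stat5a line and 0.16 (interval -0.11 to 0.42) in the Stat5b line, and neither passed.

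Ccnd3 was the most abundant D-type cyclin RNA at 0 and 48 hr. WT libraries of the Stat5b line held 50.5, 53.4 and 56.8 RPKM at 0 hr and 186, 182 and 199 RPKM at 48 hr, and those of the Stat5a line 170, 176 and 170 RPKM at 48 hr. At 48 hr the Stat5b KI libraries held 103.4, 114.5 and 86.0 RPKM, below all WT libraries of that time, with a log2 difference of -0.98 (SE 0.14, adjusted p = 1.41e-07). The rise from 0 to 48 hr was 1.51 (SE 0.14) and 1.65 (SE 0.14) in WT cells, and it was 1.1 (SE 0.14) and 0.97 (SE 0.14) in Stat5a KI and Stat5b KI cells. KI minus WT responses differed in the Stat5b line by -0.68 (SE 0.20, adjusted p = 0.00401), while -0.41 in the Stat5a line did not pass (interval -0.80 to -0.02), although it did, at -0.42, without both libraries that stand apart. At 4 hr the Stat5a line WT value of 46.3 RPKM includes replicate 2 at 17.5 RPKM, and the other replicates were at 59.5 and 61.9 RPKM. Reads of Ccnd3 could be shared with Bysl, which overlaps 359 of its 2119 exon bases on the opposite strand at a median of 8.55 RPKM, and with a Ccnd3 pseudogene on chromosome 4.

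Among the D-type kinases, Cdk6 had the largest rise of all members at 4 hr. WT libraries of the Stat5b line went from 5.00, 6.13 and 5.39 RPKM at 0 hr to 21.1, 24.6 and 26.1 RPKM at 4 hr and 38.4, 35.4 and 37.0 RPKM at 48 hr. The Stat5b KI libraries held 5.20, 5.54 and 5.60 RPKM at 0 hr, 5.33, 4.83 and 5.53 RPKM at 4 hr and 6.70, 7.15 and 6.47 RPKM at 48 hr. WT and KI cells thus overlapped at 0 hr, and from 4 hr on no KI library reached a WT library. The WT change at 4 hr was 1.80 (SE 0.11) for the Stat5a line and 1.95 (SE 0.11) for the Stat5b line, and neither line's WT cells changed past the test between 24 and 48 hr.

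In Stat5b KI cells the 48 hr response of Cdk6 was 0.12 (interval of 2 SE from -0.10 to 0.34) and did not pass, although the libraries of the 2 times did not overlap. The log2 difference of Stat5b KI from WT cells was -2.30 (SE 0.11) at 4 hr, -2.40 (SE 0.11) at 24 hr and -2.52 (SE 0.11, adjusted p = 9.68e-20) at 48 hr. Stat5a KI cells took a middle place, with 11.6, 13.3 and 13.04 RPKM at 48 hr against 35.1, 36.7 and 31.2 RPKM in WT, and a log2 difference of -1.49 (SE 0.11, adjusted p = 6.87e-13). The KI effect at 48 hr differed between the lines by -1.04 (SE 0.15, adjusted p = 3.76e-05). Leaving out replicate 2 of Stat5a KI at 48 hr gave -0.98, still past the test but under the fold of 2. Without replicate 2 of WT at 4 hr and replicate 3 of WT at 0 hr, the Stat5a KI difference at 4 hr was -1.53. Marker sums differed at 48 hr as well, in both directions. The 5 measured markers of CD8 T cells summed to 1579 RPKM in Stat5b KI and 1044 RPKM in WT cells. The 5 markers of memory-phenotype CD8 T cells, with Ly6c2 the most abundant, summed to 502.5 RPKM in Stat5b KI and 1112 RPKM in WT cells, and to 582.6 and 963 RPKM in the Stat5a line. Of these 5, 3 were called lower in Stat5b KI cells (Il2rb, Eomes and Ly6c2) and 1, Eomes, in Stat5a KI cells. The 4 NK cell markers summed to 22.9 RPKM in Stat5b KI and 40.1 RPKM in WT cells, with Klre1 the most abundant, and 2 of them were called lower and 2 higher. In WT cells of the Stat5b line the memory-phenotype sum itself rose from 427.8 RPKM at 0 hr to 1112 RPKM at 48 hr. The NK cell sum there rose from 12.3 to 40.1 RPKM. Il2rb is named by the paper among known STAT5 target genes. Cell number and RNA per cell cannot be told apart in these sums. The part of the cells named here in the Cdk6 values was not tested.

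Cdk4 rose later than Cdk6. Its WT libraries in the Stat5b line held 47.8, 56.1 and 59.8 RPKM at 0 hr, 51.9, 55.0 and 55.7 RPKM at 4 hr and 193, 189 and 196 RPKM at 48 hr, so 0 and 4 hr overlapped and 48 hr stood apart. The changes at 4 hr, -0.21 and -0.18, did not pass in either line, and those at 24 hr were 1.16 (SE 0.10) and 1.18 (SE 0.10). Without both libraries that stand apart, the changes at 4 hr were 0.02, of the other sign, and -0.18. The value of -0.18, for the Stat5b line, then passed at an adjusted p of 0.0402. Neither library is of that line, but all groups share 1 fit and its estimate of the spread. Stat5b KI libraries were within the WT range or above it at 0 hr, at 53.0, 64.7 and 52.7 RPKM, and held 63.1, 68.8 and 65.2 RPKM at 24 hr against 128.9, 146.7 and 145.1 RPKM in WT. The log2 difference was -1.12 (SE 0.10) at 24 hr and -1.23 (SE 0.10, adjusted p = 2.17e-13) at 48 hr. In Stat5a KI cells it was -0.34 (SE 0.10) and -0.66 (SE 0.10, adjusted p = 9.15e-07), which passed the test and stayed under the fold of 2, and the lines differed at 48 hr by -0.58 (SE 0.14, adjusted p = 0.00461).

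Both E-type cyclins rose steeply, by different routes. Ccne1 was already higher at 4 hr, by 0.79 (SE 0.15) and 0.74 (SE 0.15) in WT cells of the Stat5a and Stat5b line, and Ccne2 was lower at 4 hr, by -0.87 (SE 0.22) and -0.69 (SE 0.23). WT group means of Ccne1 in the Stat5b line were 2.38, 4.49, 19.4 and 36.9 RPKM at 0, 4, 24 and 48 hr, and those of Ccne2 were 0.909, 0.638, 6.23 and 13.5 RPKM. At 48 hr against 0 hr, Ccne1 had risen by 3.80 (SE 0.16) and 3.78 (SE 0.16), and Ccne2 by 2.62 (SE 0.21) and 3.71 (SE 0.23). Without WT replicate 2 of 4 hr, the early fall of Ccne2 in the Stat5a line was -1.11 and counted as a call.

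KI cells held less of both E-type cyclins at 24 and 48 hr. Earlier, all Stat5b KI libraries lay above all WT libraries for Ccne1 at 0 hr, with means of 3.46 and 2.38 RPKM. The same held for Ccne2 at 0 hr, with means of 1.38 and 0.909 RPKM, and at 4 hr, with 1.04 and 0.638 RPKM. For Ccne1 at 4 hr, and for both genes in the Stat5a line at 0 and 4 hr, KI and WT libraries overlapped. For Ccne1 at 48 hr the Stat5b KI libraries held 12.9, 15.3 and 11.96 RPKM against 37.4, 36.3 and 37.0 RPKM in WT, with a log2 difference of -1.54 (SE 0.14, adjusted p = 5.91e-12). Stat5a KI libraries held 19.9, 19.6 and 18.9 RPKM against 30.7, 37.3 and 35.3 RPKM, with a difference of -0.87 (SE 0.14, adjusted p = 2.59e-06). Neither pair of groups overlapped. For Ccne2 at 24 hr the Stat5b KI libraries held 1.23, 1.41 and 0.923 RPKM against 5.50, 5.52 and 7.67 RPKM in WT, a log2 difference of -2.42 (SE 0.22, adjusted p = 1.37e-11), and the KI libraries at 24 hr overlapped with those at 0 hr. Stat5a KI cells differed from WT in Ccne2 by -1.27 (SE 0.21) at 24 hr and -1.21 (SE 0.20) at 48 hr. Of the members, Ccne2 shared the largest part of its exon bases with a neighbour, whose reads it may hold. Ints8, on the opposite strand, shares 1734 of the 3113 exon bases of Ccne2 and had a median of 7.69 RPKM. Ints8 differed between Stat5b KI and WT cells at 48 hr by -0.69 (SE 0.10), less than the -1.91 (SE 0.21) of Ccne2.

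Cdk2, the kinase partner of cyclins E and A, changed sign in its KI difference over the time course in both lines. WT means in the Stat5b line were 6.62, 6.79, 14.3 and 25.7 RPKM at the 4 times, and Stat5b KI means 9.03, 10.7, 9.97 and 13.2 RPKM. At 0 hr every KI library, at 8.44, 9.65 and 8.99 RPKM, was above every WT library, at 6.98, 6.31 and 6.57 RPKM, and at 48 hr every KI library, at 13.1, 14.7 and 11.9 RPKM, was below every WT library, at 25.4, 25.8 and 26.0 RPKM. The log2 differences passed at all 4 times: 0.38 (SE 0.11) at 0 hr, 0.55 (SE 0.11) at 4 hr, -0.55 (SE 0.11) at 24 hr and -1.04 (SE 0.11, adjusted p = 2.16e-10) at 48 hr. In the Stat5a line the KI libraries also lay above all WT libraries at 0 and 4 hr and below them at 48 hr. The difference at 0 hr, 0.32 (SE 0.11, adjusted p = 0.104), did not pass, that at 4 hr was 0.66 (SE 0.12, adjusted p = 0.000408), and that at 48 hr was -0.38 (SE 0.11, adjusted p = 0.00381). Without WT replicate 2 the value at 4 hr was 0.50 (adjusted p = 0.00262), and with only the 2 groups in the fit it was 0.64 and did not pass (adjusted p = 0.735).

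Ccna2 and Ccnb1 had the largest log2 fold changes of the members in WT cells at 48 hr. In RPKM most of their own increase came between 24 and 48 hr, and in the Stat5b line the group means of Cdk4, from 54.6 to 192.5 RPKM, and Ccnd3, from 53.6 to 189 RPKM, moved farther. For Ccna2 the WT libraries of the Stat5b line held 2.94, 3.29 and 3.26 RPKM at 0 hr, 16.4, 22.1 and 25.6 RPKM at 24 hr and 89.1, 88.0 and 97.4 RPKM at 48 hr. For Ccnb1 they held 1.38, 1.60 and 1.61 RPKM at 0 hr, 5.23, 7.05 and 8.18 RPKM at 24 hr and 55.4, 54.6 and 54.7 RPKM at 48 hr. No 2 of these times overlapped in either gene. The log2 fold change at 48 hr against 0 hr was 4.46 (SE 0.27) and 4.68 (SE 0.27) for Ccna2 and 4.85 (SE 0.29) and 4.99 (SE 0.29) for Ccnb1, each time the Stat5a line first. Between 24 and 48 hr Ccnb1 rose by 3.01 (SE 0.26) and 3.02 (SE 0.26), and Ccna2 by 2.13 (SE 0.24) and 2.11 (SE 0.24). Neither gene changed past the test at 4 hr in WT cells. In the GRCm38.p6 annotation Ccna2 shares 378 of its 3376 exon bases with Exosc9 on the opposite strand, at a median of 16.8 RPKM. The transcript counted for Ccna2 is 2811 bases long, so the shared bases may lie partly or wholly outside it. Exosc9 itself rose by 1.32 from 0 to 48 hr in WT cells (Stat5a line) and was at -1.01 in Stat5b KI against WT cells at 48 hr, on the log2 scale.

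Stat5b KI cells held more RNA of both genes than WT cells before IL-2 and less at 24 and 48 hr. Their Ccna2 libraries were at 8.13, 10.3 and 9.41 RPKM at 0 hr, above all WT libraries, and at 27.8, 35.5 and 24.0 RPKM at 48 hr, below all WT libraries. The log2 difference from WT was 1.49 (SE 0.25, adjusted p = 3.83e-05) at 0 hr, 1.46 (SE 0.24) at 4 hr, -1.74 (SE 0.24) at 24 hr and -1.73 (SE 0.23, adjusted p = 5.26e-08) at 48 hr. For Ccnb1 it was 1.65 (SE 0.27), 1.62 (SE 0.26), -1.14 (SE 0.26) and -2.10 (SE 0.25, adjusted p = 3.23e-09) at the same times. In Stat5b KI cells both genes were lower at 24 hr than at 0 hr, Ccna2 by -0.66 (SE 0.24, adjusted p = 0.0209) and Ccnb1 by -0.82 (SE 0.26, adjusted p = 0.00768), and then rose to 1.46 and 1.23 above their start at 48 hr.

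In the Stat5a line the KI differences of both genes at 0 hr did not pass, 0.48 (SE 0.25) for Ccna2 and 0.50 (SE 0.28) for Ccnb1. Replicate 1 of Stat5a KI at 0 hr, with 7.42 RPKM of Ccna2 and 3.44 RPKM of Ccnb1, stood above its partners at 3.21 and 3.14 RPKM and at 1.27 and 1.43 RPKM. Without it the differences at 0 hr were -0.03 and -0.07. That library also had the highest erythroid marker sum of its group, 391 RPKM. At 48 hr Stat5a KI cells held 54.7, 42.6 and 41.4 RPKM of Ccna2 against 74.1, 87.9 and 81.7 RPKM in WT, with a log2 difference of -0.87 (SE 0.23, adjusted p = 0.00212), and the Ccnb1 difference was -1.14 (SE 0.24, adjusted p = 0.000202). At 4 hr the Stat5a KI differences of 0.82 (SE 0.28) for Ccna2 and 0.87 (SE 0.30) for Ccnb1 passed, with 2 KI libraries, of which replicate 1 had an erythroid sum of 393 RPKM. Neither passed without WT replicate 2, at 0.89 (adjusted p = 0.0516) and 0.77 (adjusted p = 0.11), or without KI replicate 1, at 0.23 and 0.45. Erythroid markers moved with the early differences in Stat5b KI cells: all 6 were called higher in Stat5b KI cells at 0 hr, as were all 6 B cell and all 9 macrophage markers. Within the Stat5b KI libraries at 0 and 4 hr the highest Ccna2 value, 13.8 RPKM, belonged to a library with the lowest erythroid sum of the 6, 337 RPKM. Mki67, a gene transcribed in dividing cells of any type, was 1.27 above WT in Stat5b KI cells at 0 hr (SE 0.23, adjusted p = 0.000105) and 1.52 lower at 48 hr on the log2 scale. The part of other cells in these early differences was not tested.

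**Figure D3:**
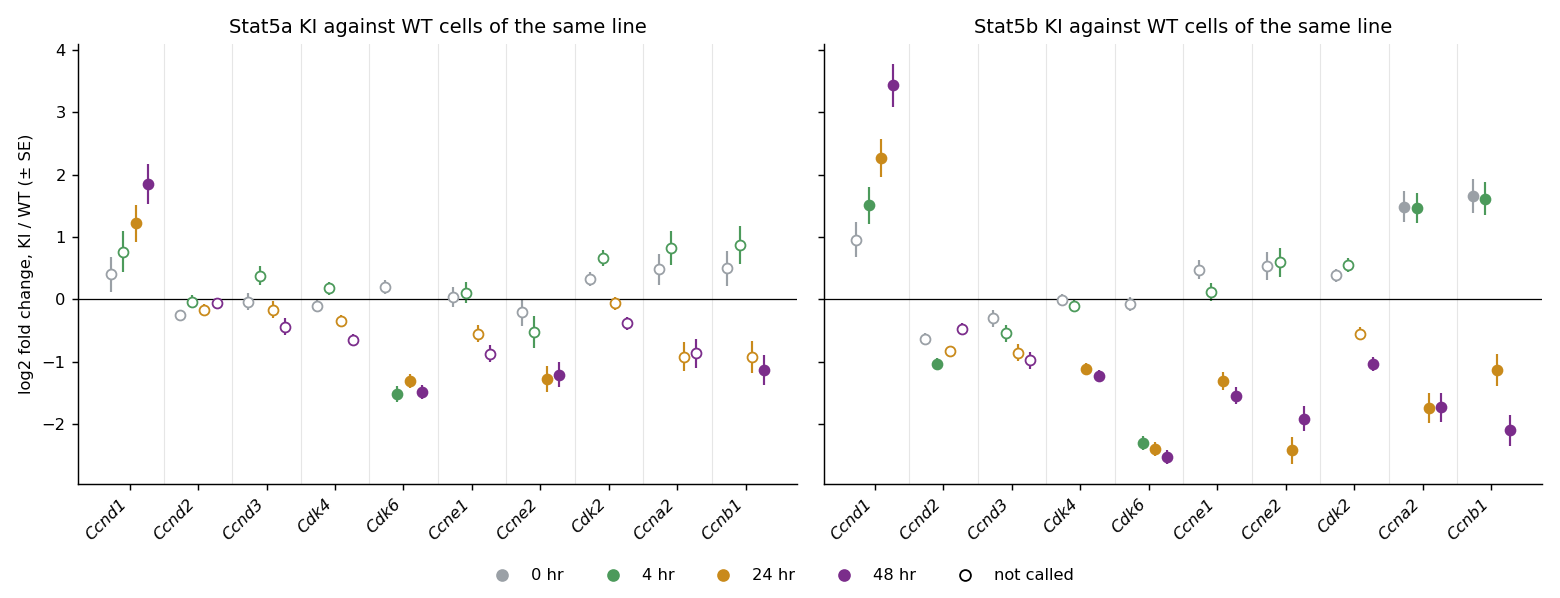
Log2 fold change of KI against WT cells for each member at 0, 4, 24 and 48 hr in both lines, with bars of 1 SE. Filled points are calls, which need an adjusted p up to 0.05 and a fold of 2 or more. Ccnd1 reaches 1.85 and 3.43 at 48 hr, Cdk6 lies below 0 from 4 hr on, and Ccna2 and Ccnb1 of the Stat5b line cross from above 0 to below it between 4 and 24 hr.

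The counts of members follow, each beside the share of all 15566 genes called in the same comparison. In WT cells at 4 hr, 2 members were called in the Stat5a line, where 21.4% of all genes were, and 2 in the Stat5b line, where 15.7% were, in each case Cdk6 up and Ccnd1 down. With both libraries of the Stat5a line that stand apart left out, Ccnd2, Ccne1 and Ccne2 were called too, for a count of 5 (background 21.6%). At 24 hr it was 8 members (background 22.9%) and 9 members (22.5%), and at 48 hr all 10 in both lines (36.6% and 35.3%), of which 9 rose and 1, Ccnd1, fell. Over all genes 14.3% and 14.6% were called higher at that time, and 22.3% and 20.7% lower. The median log2 fold change at 48 hr was 2.20 and 2.18 over the 10 members and -0.12 and -0.13 over all genes tested. In the step from 4 to 24 hr, 6 members were called in each line (19.6% and 14.8%), and in that from 24 to 48 hr 5 and 4 members (9.39% and 7.87%).

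Between KI and WT cells of the Stat5a line, 0 members were called at 0 hr (background 1.04%), and none of them passed the adjusted p alone, while 2, Ccnd2 and Cdk2, had an unadjusted p under 0.05 in edgeR. As each library of these groups was left out in turn, 1671 of 15499 to 2772 of 15550 genes had such a p, with 2 to 4 members. DESeq2 called 0 members at 0 hr too. Then 1 member was called at 4 hr (6.63%), 3 at 24 hr (4.45%) and 4 at 48 hr (8.78%). As each library was left out in turn the count ran from 1 to 4 at 4 hr, with 2 without WT replicate 2 or 3 and 4 without KI replicate 2, and from 3 to 5 at 24 hr, with 5 without replicate 1 of WT or of KI. With limma it was 1 at 24 hr (1.18% of all genes). In the Stat5b line the counts were 2 (7.98%), 5 (10.4%), 7 (16.7%) and 8 (26.3%). At 48 hr the 8 were Ccnd1 up and Cdk4, Cdk6, Ccne1, Ccne2, Cdk2, Ccna2 and Ccnb1 down, while Ccnd2 and Ccnd3 passed the test downward under the fold of 2. The median difference at 48 hr was -0.76 and -1.39 over the members in the Stat5a and Stat5b line, and 0.04 and 0.10 over all genes tested. In Stat5a KI cells the call at 4 hr, Cdk6, rests on 2 KI libraries, and it was lost when only those groups entered the fit (adjusted p = 0.735 with the same direction, -1.57). That smaller edgeR fit called 0 of 13842 genes, and 669 had an unadjusted p under 0.05, 2 of them members.

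**Figure D4:**
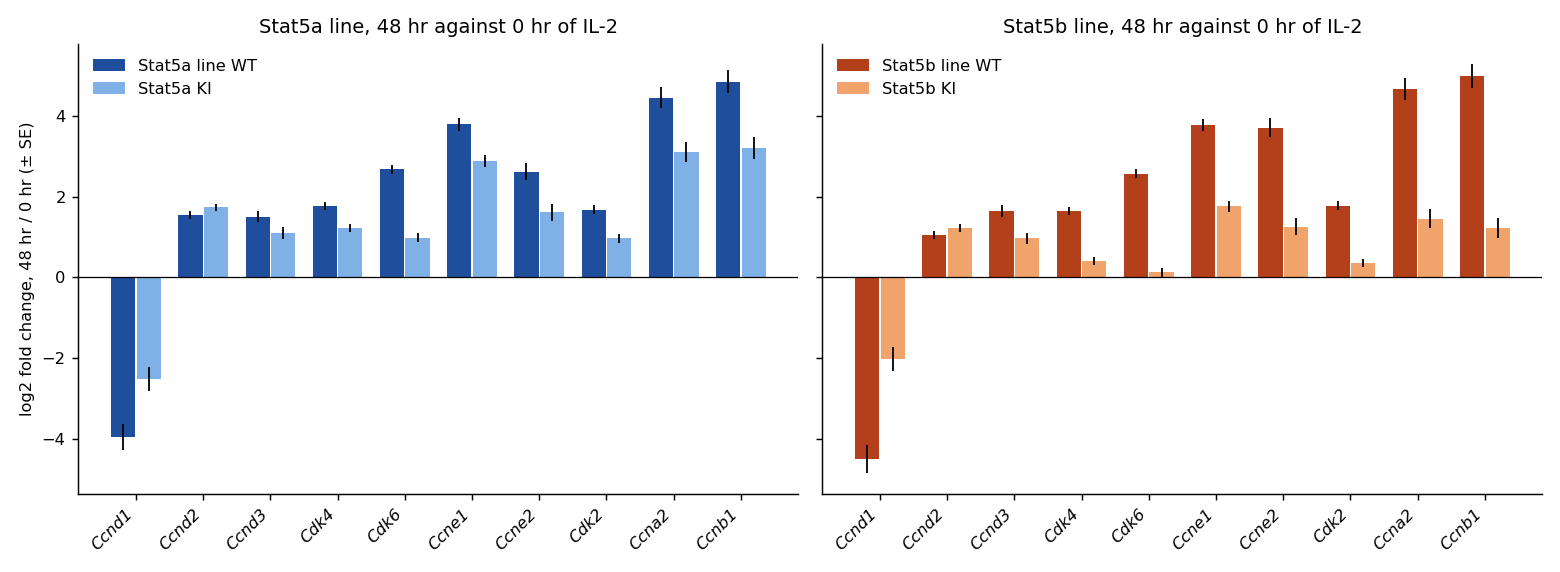
Log2 fold change of each member at 48 hr against 0 hr of IL-2 in WT and KI cells of both lines, with bars of 1 SE. The KI bar is nearer to 0 than the WT bar for every member except Ccnd2, where the KI bar is the larger in both lines.

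In KI cells the log2 fold change of every member at 48 hr had the same sign as in WT cells, although that of Cdk6 in Stat5b KI cells did not pass. At 48 hr against 0 hr, 8 members were called in Stat5a KI cells (background 26%) and 6 in Stat5b KI cells (18.8%), and at 24 hr 4 (21.1%) and 3 (15.8%). The difference of the 48 hr response between KI and WT cells was called for 5 members with Stat5a KI (6.25%) and 8 with Stat5b KI (21.4%). With the replicate number as a block the first count was 4, as Ccne2 came to -0.98, under the fold of 2. By the adjusted p alone, it passed for 8 members (28%) and 9 members (49.4%). It was widest in the Stat5a line for Cdk6, at -1.69 (SE 0.15, adjusted p = 1.73e-09), and Ccnb1, at -1.63 (SE 0.37), and in the Stat5b line for Ccnb1, at -3.76 (SE 0.37, adjusted p = 9.05e-11), and Ccna2, at -3.22 (SE 0.34). Ccnd1 had the opposite sign, 1.45 (SE 0.42) and 2.48 (SE 0.44), as its fall was smaller in KI cells. These responses share the 0 hr libraries with the KI differences above, so the 2 kinds of value are not independent of each other.

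Compared between lines, the KI effect at 48 hr differed past the fold of 2 for 2 members (background 2.06%), Ccnd1 by 1.58 (SE 0.47, adjusted p = 0.0237) and Cdk6 by -1.04. By the adjusted p alone 6 members passed (11%), the others being Ccnd2, Cdk4, Ccne1 (-0.67, SE 0.19) and Cdk2 (-0.66, SE 0.15). For Ccnd3, Ccne2, Ccna2 and Ccnb1 the differences of -0.54, -0.70, -0.87 and -0.97 did not pass, with adjusted p from 0.0589 to 0.107. Without both libraries that stand apart, Ccnd3, Ccna2 and Ccnb1 passed at nearly the same values, -0.54, -0.86 and -0.96. Neither library is of 48 hr, but all 16 groups share 1 fit and its estimate of the spread. The count ran from 0 to 4 as each library was left out in turn, and it was 0 without replicate 2 of Stat5a KI at 48 hr.

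D-type cyclins and the later cyclins differed in level, and their shares of cyclin RNA shifted over time. Per length, the D-type cyclins summed to 106.7 ± 4.57 RPKM and the E, A and B cyclins to 7.99 ± 0.32 RPKM in WT cells of the Stat5b line at 0 hr, and to 303 ± 9.68 and 197 ± 5.26 RPKM at 48 hr (SD, n = 3 each). The share of the D-type in the RPKM of the 7 cyclins was therefore 93.03%, 94.4%, 84.5% and 60.6% at 0, 4, 24 and 48 hr. In Stat5b KI cells it was 82.1%, 82.8%, 90.0% and 76.2%, so that it was below WT at 0 and 4 hr and above it at 24 and 48 hr, with no overlap of libraries at any time. Stat5a line WT cells went from 91.8% to 62.9% and Stat5a KI cells from 89.8% to 73.2%, where the libraries overlapped at 0 hr and not at 48 hr. Inside the D-type, Ccnd1 made up 4.44% of the sum in WT cells of the Stat5b line at 0 hr and 0.0775% at 48 hr, and 10.99% and 1.42% in KI cells. Ccnd2 led at 4 hr, with 58.3% of the D-type sum in those WT cells, and Ccnd3 at 48 hr, with 62.4%.

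**Figure D5:**
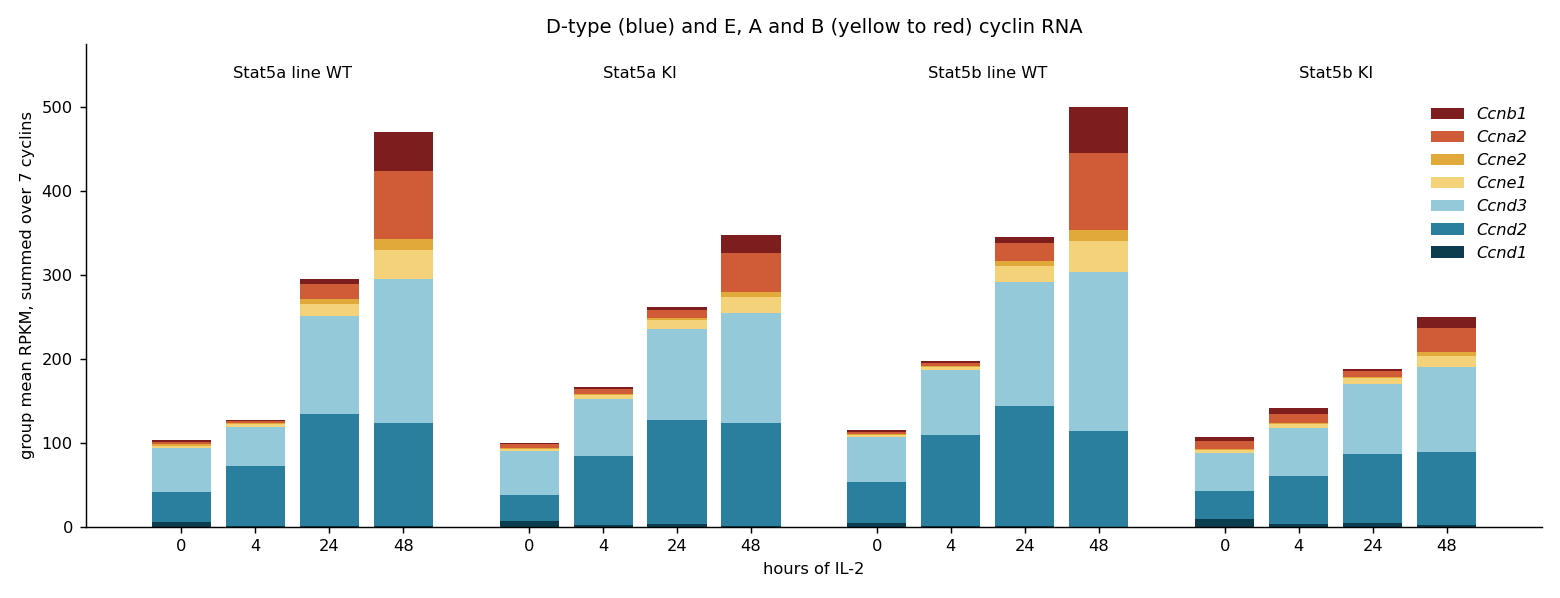
Group means of the 7 cyclin RNAs, stacked, in RPKM, for the 16 groups of line, genotype and hours of IL-2. Ccnd2 and Ccnd3 make up most of each bar at 0 and 4 hr, and the E, A and B cyclins add 197 RPKM to the WT bar of the Stat5b line at 48 hr and 59.7 RPKM to its KI bar.

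By time of the highest group mean, Ccnd1 peaked at 0 hr in all 4 series and Ccnd2 at 24 hr in 3 of them. Ccnd3, Cdk4, Ccne1, Ccne2, Cdk2, Ccna2 and Ccnb1 were highest at 48 hr in all 4. The ratio of the highest to the lowest group mean was 20.1 for Ccnd1, 2.96 for Ccnd2, 28.9 for Ccna2 and 35.9 for Ccnb1 in WT cells of the Stat5b line, and 3.58, 2.66, 4.47 and 4.28 in KI cells. When the 16 group means of a member were put in order, neighbours whose libraries did not overlap numbered from 3 of 15 for Ccnd1, Cdk6 and Cdk2 to 6 of 15 for Ccnb1. WT cells of the Stat5b line at 48 hr led the order for 7 members: Ccnd3, Cdk4, Ccne1, Ccne2, Cdk2, Ccna2 and Ccnb1. For 4 of these, Cdk4, Ccne1, Ccne2 and Cdk2, they overlapped with the next group, the Stat5a line's WT cells at 48 hr. Such orders and overlaps were not counted over all genes, so these numbers describe the members and do not set them apart.

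Other genes that act with these members were followed in lists by role. In WT cells at 48 hr, 36.6% and 35.3% of all genes were called in the Stat5a and Stat5b line, and 14.3% and 14.6% were called higher. Among 5 other cell cycle cyclins and kinases, 3 passed the filter, and all 3 were called higher at 48 hr in WT cells of both lines. Cdk1, the kinase of cyclin B1, rose most, by 4.64 (SE 0.28) and 4.68 (SE 0.28), from 1.27 to 36.8 RPKM in the Stat5a line. Both CKS adaptors, small subunits of the kinases, were called higher, Cks1b by 3.32 and 3.27, and both inhibitory kinases, Wee1 by 2.30 and 3.09. Of the 3 CDC25 phosphatases, which remove inhibitory phosphates from the kinases, 2 were called, with Cdc25c at 4.11 in both lines, and of 7 adaptors of the ligases that degrade cyclins 4 were called, with Cdc20 at 3.75 and 3.84.

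In Stat5b KI against WT cells at 48 hr, calls in these lists were downward, where 9.81% of all genes were called lower: 3 of 3 other cell cycle genes with Cdk1 at -1.77 (SE 0.24), 2 of 2 CKS adaptors with Cks2 at -1.75 (SE 0.14), 2 of 2 inhibitory kinases with Wee1 at -1.44 (SE 0.16), 2 of 3 phosphatases with Cdc25a at -1.60 (SE 0.09) and 3 of 7 ligase adaptors, led by Cdc20. In Stat5a KI cells none of these lists had a call at 48 hr (2.43% of all genes were called lower), and Cdk1 was at -0.91 (SE 0.23, adjusted p = 0.00162). At 0 hr the Cdk1 difference of Stat5b KI from WT cells was 1.38 (SE 0.26), in the direction of Ccna2 and Ccnb1, and at 4 hr it was called in both lines, at 1.1 (Stat5a line) and 1.45 (Stat5b line). In the Stat5a line the KI libraries held 3.68 and 1.497 RPKM of Cdk1 at 4 hr and the WT libraries 1.17, 0.397 and 1.43 RPKM. That call was lost without WT replicate 2 (0.90, adjusted p = 0.0505) and without KI replicate 1 (0.37). With only the 2 groups in the fit the value was 1.13 and did not pass (adjusted p = 0.735).

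The CDK-activating kinase was followed as a further list. Of its 3 genes only Ccnh, for cyclin H, was called at 48 hr, at 1.49 (SE 0.09) and 1.54 (SE 0.09), and its KI differences at 48 hr, -0.70 in the Stat5a and -0.87 in the Stat5b line, passed under the fold of 2. Cdk7, its kinase, rose by 1.05 (SE 0.09) and 0.84 (SE 0.09) at 4 hr in WT cells of the 2 lines, and Stat5b KI cells held 5.12 RPKM at 4 hr against 5.26 RPKM in WT, a difference of -0.15 (SE 0.09) that did not pass. In Stat5a KI cells it was -0.33 (SE 0.10, adjusted p = 0.0149), and without WT replicate 2, whose Cdk7 level was 78.3 CPM against 55.7 and 53.0 CPM in its partners, it was -0.14 and did not pass (adjusted p = 0.225). The rise in WT cells of that line was 0.86 without the same library, under the fold of 2. Transcriptional cyclins and kinases, 12 genes, had 1 call downward at 48 hr in each line, Ccnl1, at -2.02 (SE 0.07) and -1.88 (SE 0.07), and 1 upward in the Stat5b line, Ccnc, at 1.12. Of 15 other cyclins and kinases tested, 4 were called lower and 0 higher in each line, where 22.3% and 20.7% of all genes were called lower, with Ccno lowest at -3.86 (SE 0.41) and -3.07 (SE 0.40), from 0.907 to 0.0714 RPKM in the Stat5a line. In Stat5b KI against WT cells at 48 hr 5 of these 15 were called higher (background for higher calls 16.5%), led by Cdk18 at 3.02 (SE 0.72), whose levels were only 0.184 and 0.021 RPKM, and in Stat5a KI cells Cdk18 was the 1 call, at 1.98 (SE 0.74), with 6.35% of all genes called higher.

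Likeness of pattern was taken as the correlation of log2 CPM over the 16 group means, which share libraries and times. Ccnd2 was nearest to Vps33a (0.98), Dph2 (0.98) and Pim2 (0.98), Pim2 being a serine/threonine kinase gene. Ccnd3 was nearest to Shq1 (0.98), Armc6 (0.98) and the mismatch repair gene Pms2 (0.98). Ccne1 was nearest to Cbx5, for a heterochromatin protein (0.998), Tnp2 (0.995) and the DNA damage checkpoint gene Hus1 (0.992). Ccna2 was nearest to the mitotic kinesins Kif11 (0.999) and Kif4 (0.998) and the spindle checkpoint gene Bub1b (0.998). Among the members themselves, Ccna2 and Ccnb1 correlated at 0.98, Ccnd3 and Cdk4 at 0.96, Ccnd2 and Cdk6 at 0.81, and Ccnd1 with the other 9 at -0.64 to -0.86.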

How the data were processed

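The authors deposited, for each of 48 RNA-seq libraries, read counts and RPKM per RefSeq transcript. Per the submitters' processing notes the build was mm10 (GRCm38), with TopHat2 2.0.11, Bowtie2 2.2.6, SAMtools 0.1.8 and bedtools 2.25.0 named; the counting program and its strand setting are not given in the sources used here. The longest of a symbol's transcripts was used, and of the 31682 transcripts 23992 symbols remained. Replicate 3 of Stat5a KI at 4 hr was left out for its depth, which leaves 17369112 to 60200653 counts per library. Levels are the RPKM values deposited by the authors. Counts were tested in edgeR 4.0.16 (R 4.3.3; TMM, filterByExpr with a minimum count of 10, quasi-likelihood test, all 16 groups in 1 fit), with Benjamini-Hochberg adjustment over 15566 genes. A call needed an adjusted p up to 0.05 together with a fold of 2 or more, and "passed" refers to that p alone. SE are those of the log2 fold change, and intervals span 2 SE on each side. The code was tested on simulated data.

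The members and lists were chosen with earlier results of these data known. Named were the 10 members, Stat5a and Stat5b, Cdk1, Cdk7, the most changed call up and down in each list, the 3 nearest genes of Ccnd2, Ccnd3, Ccne1 and Ccna2, and markers; Mki67 and the overlapping genes were added after values were seen. No libraries of a group were duplicates: the chi-square per gene between replicates was at least 4.83. Same-numbered libraries deviated together (every correlation over 0.1) in 2 of 22 comparisons, WT cells of the Stat5a line at 24 and at 48 hr against 0 hr. Alternatives were DESeq2 1.42.0 and its size factors, limma 3.58.1 on log2(RPKM + 1), a replicate block, other filters, all 48 libraries, only the groups compared, no fold threshold, and each library left out in turn. ChIP-seq is not analysed here.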

Additional observations from a re-analysis of the deposited data

Results flagged for a closer look

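The effect of the KI at 48 hr minus that at 0 hr, which equals the difference of the IL-2 response between KI and WT cells, passed the test for 8 members in the Stat5a line: Ccnd1 (1.45), Cdk4 (-0.55), Cdk6 (-1.69), Ccne1 (-0.91), Ccne2 (-1.001), Cdk2 (-0.71), Ccna2 (-1.35) and Ccnb1 (-1.63), as log2 values. In the Stat5b line it passed for 9: Ccnd1 (2.48), Ccnd3 (-0.68), Cdk4 (-1.23), Cdk6 (-2.45), Ccne1 (-2.02), Ccne2 (-2.45), Cdk2 (-1.42), Ccna2 (-3.22) and Ccnb1 (-3.76). The effect of the Stat5b KI minus that of the Stat5a KI at 48 hr passed for 6 members: Ccnd1 (1.58), Ccnd2 (-0.41), Cdk4 (-0.58), Cdk6 (-1.04), Ccne1 (-0.67) and Cdk2 (-0.66). At 4 hr the KI libraries of Ccnd3 lay above all WT libraries in the Stat5a line and below them in the Stat5b line, where the log2 fold change was -0.55; the difference between the lines at 4 hr was not tested, and the Stat5a line WT group holds replicate 2 at 17.5 RPKM.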

How the results depend on the processing

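Of 4170 pairs of a member's fold change and an alternative, 3974 (95.3%) kept their side of the threshold, 42 lost the call and 154 gained it. In 54 the sign differed, in each case for a value called under neither setting, and 0 calls changed sign. DESeq2 and DESeq2's size factors kept all 250 each. With limma the count of members called was 7 for Stat5a KI cells at 24 hr (11.5% of all genes called in that fit), 1 for Stat5a KI against WT at 24 hr (1.18%), 3 for the difference of response in the Stat5a line (2.16%) and 0 for the difference between lines (0.503%). For that difference 8 members had an unadjusted p under 0.05 in limma, where the number of all genes at that p is not given. In edgeR, with 1 library left out in turn, 3130 of 15552 to 3942 of 15557 genes had such a p for it, with 9 or 10 members. With all 48 libraries the count called for the difference between lines was 1 (0.558%). With only the groups compared, Stat5a KI against WT at 4 hr gave 0 (2 members at an unadjusted p under 0.05 in edgeR). With no fold threshold the counts, each with the share of all genes passing, were 5 (58.4%) and 6 (49.5%) for WT cells at 4 hr in the Stat5a and Stat5b line, 8 (42.7%) and 9 (40%) for 48 against 24 hr, 8 (57.5%) and 6 (47.9%) for KI cells at 24 hr, 4 (24.6%), 7 (18.5%) and 9 (44.3%) for Stat5a KI against WT at 4, 24 and 48 hr, 6 (22.9%) for Stat5b KI against WT at 0 hr, 8 (28%) for the difference of response in the Stat5a line and 6 (11%) for that between lines. Without both libraries that stand apart (chosen after seeing the data) the counts were 5 for Stat5a line WT cells at 4 hr (21.6%) and 2 for Stat5a KI against WT at 4 hr (3.01%). The cause of these shifts was not tested, beyond the lower threshold or fewer libraries that define them. With each library left out in turn, WT cells at 4 hr in the Stat5a line gave 2 to 4 (4 without WT replicate 2 at 4 hr, 19% of all genes), Stat5a KI against WT gave 1 to 4 at 4 hr (2 without WT replicate 2, 2.79%, or 3, 9.33%, and 4 without KI replicate 2 of that time, 5.83%) and 3 to 5 at 24 hr (5 without replicate 1 of WT, 4.62%, or of KI, 3.32%), and the difference between lines 0 to 4 (0 without Stat5a KI replicate 2 at 48 hr, 1.42%, and 4 without Stat5b KI replicate 2, 2.41%). With a replicate block, the counts were unchanged except for the difference of response in the Stat5a line, 4 in place of 5, where Ccne2 came to -0.98 (adjusted p = 0.00934), under the fold; the pairing of libraries is not stated in the labels, and correlations of same-numbered deviations ran from -0.23 to 0.43. Scaling moved the median of all genes by over 0.1 in 1 case, -0.10 with all 48 libraries for Stat5a KI against WT at 4 hr.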

Other observations

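The library left out, replicate 3 of Stat5a KI at 4 hr, held few reads of each member: 63 of Ccnd2, 41 of Ccnd3, 26 of Cdk2, 23 of Cdk4, 11 of Ccnd1, 4 of Cdk6, 2 of Ccna2, 1 each of Ccne2 and Ccnb1 and 0 of Ccne1. At its depth, 3 reads correspond to 2.92 CPM (counts scaled to library size). The other transcripts of Ccnd3, Ccne2 and Cdk2 carried nearly the same RPKM as the longest, with ratios from 0.961 to 1.08 in the 47 libraries, so the tables do not separate their isoforms. Myc, for a transcription factor that binds the E-box, and Pcna, for the DNA polymerase clamp, were chosen after their values were seen. The log2 difference in Myc between Stat5b KI and WT cells was 0.51 (SE 0.18, edgeR's quasi-likelihood adjusted p = 0.0335) at 0 hr, with KI libraries above all WT libraries, and -1.42 (SE 0.18, adjusted p = 1.79e-07), -1.38 (SE 0.18) and -1.2 (SE 0.18) at 4, 24 and 48 hr. In Stat5a KI cells it was 0.44 (SE 0.18) and -0.28 (SE 0.17) at 0 and 24 hr, which did not pass, and -0.96 (SE 0.20) and -0.56 (SE 0.17) at 4 and 48 hr, which passed under the fold of 2. The value at 4 hr was -0.77 without WT replicate 2 (adjusted p = 0.0114). It was -0.88 without KI replicate 1 (adjusted p = 0.0878) and -1.01 with only the 2 groups in the fit (adjusted p = 0.735), and did not pass in either. It reached the fold of 2 and was called with DESeq2 (-1.03), with its size factors (-1.03), with the replicate block (-1.01) and with all 48 libraries (-1.26). The same held with the transcript of highest mean RPKM (-1.001) and without WT replicate 1 (-1.1) or 3 (-1.08). With limma the value was -0.63, under the fold of 2. For Pcna the differences at 0 and 4 hr did not pass in either line, and those at 24 and 48 hr were -1.37 and -1.27 with Stat5b KI and -0.52 and -0.64 with Stat5a KI (SE 0.09 each).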
